A study of Homo sapiens with 2 samples.

Results

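Collagen chain genes were followed in KYSE-140, an established cell line from a human squamous carcinoma of the esophagus, sorted by flow cytometry into CD90+ cells, which carry the surface glycoprotein encoded by THY1, and CD90- cells, which do not. Total RNA of each population was hybridised to 1 Affymetrix U133 Plus 2.0 array, so there were 2 samples in all. Both populations came from the same line, without any treatment named in the labels, and KYSE-140 is a single tumour line grown without the stroma of a tissue. The members were all probe sets that the array annotation assigns to a collagen chain, a symbol made of COL, a number, A and a number. They comprised 112 of the 54675 probe sets and 43 of the 19775 genes with a probe set of their own. The annotation joined 0 collagen probe sets to several genes, and COL17A1, the hemidesmosomal transmembrane collagen, had 0 probe sets named for it and was not analysed here.

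Collagens are secreted or membrane proteins whose chains wind around each other in a rigid helix built from repeats that begin with glycine. Fibrillar collagens form the tension-bearing fibres of connective tissue and are made chiefly by fibroblasts. Collagen IV forms the sheet-like network of basement membranes, on which epithelial cells rest and to which squamous epithelia themselves contribute. The remaining classes coat fibrils, anchor the epidermis or the mucosa to the tissue beneath it, or form beaded filaments and hexagonal networks.

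No sort was repeated. Every value below is a single reading, nothing estimates the spread between samples, the populations could not be tested against each other, and each fold describes these 2 RNA samples. The number of arrays limits the precision. A difference in a sorted pool cannot be told apart into more cells with a transcript and more transcript per cell. Signals are the deposited linear MAS5 intensities, which were scaled alike, with a 2 to 98% trimmed mean of 499.9 on each array. Signals under a floor of 71.6, the middle of all probe sets, were set to it, and a gene was called measured where the probe set standing for it, the brightest, reached the floor on at least 1 array. A fold with one array under the floor is given as a lower bound. THY1 itself read 293, 244 and 517 on its 3 probe sets in CD90+ cells, against 78.9, 49.6 and 35.5 in CD90- cells, in the direction of the sort. As a rough yardstick, the floored log2 ratios of different measured probe sets of the same gene were compared. Their pooled SD was 0.31 over 6188 genes, and 0.26 over the 12 collagen genes with more than 1. It mixes noise with differences between the probe sets of a gene, and misses error common to a whole array.

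Of the 43 collagen genes 21 were measured (48.8%, against 63.0% of all genes) and 22 stayed under the floor in both populations. At least 2-fold higher in CD90+ cells were 3 of the 21, or 14.3%, against 2.47% of all 12466 measured genes. At least 2-fold lower were 0 of the 21, against 1.75% of all measured genes. The 3 were COL5A1, COL5A2 and COL16A1. Under a higher floor of 397, the 75th percentile of signals, 1 of 11 measured collagens was called, against 1.096% of all genes measured there, and under a lower one of 17.2, the 25th, 6 of 35, against 6.51%. COL4A4, COL6A2, COL21A1 and COL26A1 reached the floor in CD90+ cells alone and COL9A2 in CD90- cells alone, so that the filter fixed the side of these 5 and their values are bounds. Of the 16 collagen genes with neither reading under the floor 13 had a log2 ratio above 0 (81.2%, against 51.0% of all such genes), with a median of 0.46, against 0.01. With the bounds counted at their bound the median of the 21 was 0.36. By probe set 24 of the 29 with neither reading under it (82.8%) were above 0, against 49.3% of all such named probe sets. At 1.5-fold 5 collagen genes were higher (23.8%, against 7.37% of all genes) and 0 were lower (against 6.76%).

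**Figure D1:**
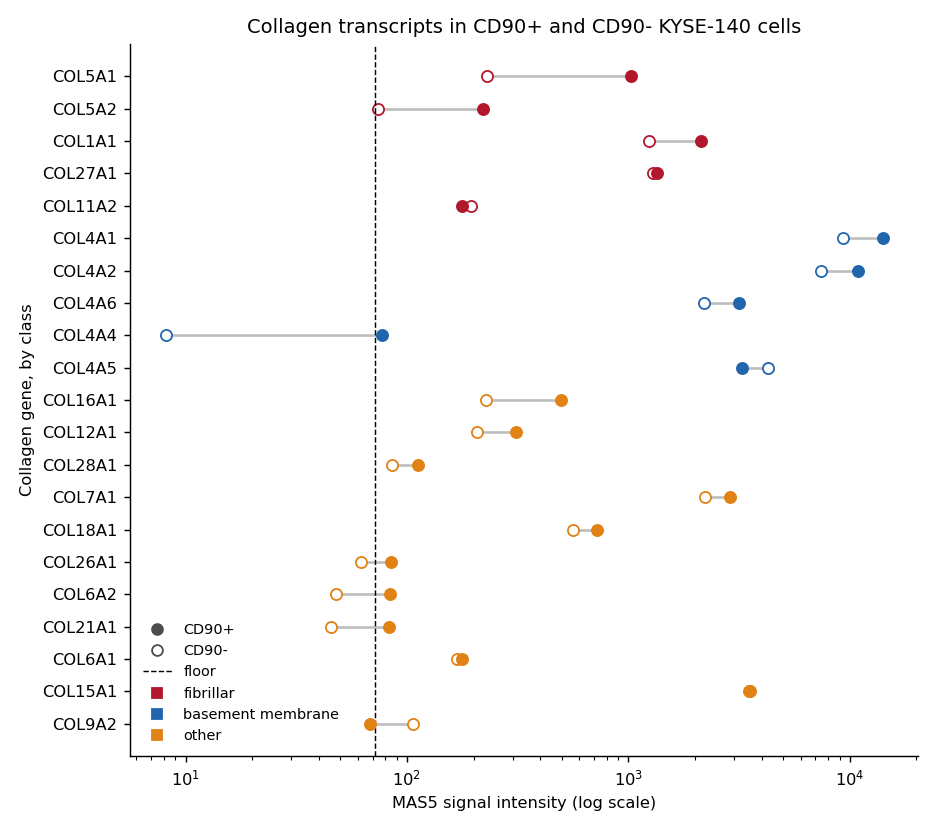
MAS5 signal (log axis) of the probe set that stands for each of the 21 measured collagen genes, 1 array per population. Filled points are CD90+ cells, open points CD90- cells, colours the collagen class and the dashed line the floor of 71.6. COL5A1, COL5A2 and COL16A1 have the widest gaps among genes with both points above the floor, and COL4A5, COL11A2 and COL9A2 have the open point to the right, while both points of COL15A1 coincide.

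Among collagen genes with both readings above the floor, the type V chains gave the largest differences. Collagen V is a minor fibrillar collagen that nucleates collagen I fibrils and limits their width, and its usual molecule joins chains encoded by COL5A1 and COL5A2. COL5A1 on chromosome 9 was 4.48-fold higher, at 1029 in CD90+ cells against 230 in CD90- cells, which is 2.16 as a log2 ratio. Its other probe sets read 586 against 178 and 282 against 69.5. All 3 probe sets were thus higher in CD90+ cells, with log2 ratios from 1.72 to 2.16, and 99.7% of all measured genes had a lower ratio than the gene. COL5A2 on chromosome 2 read 220 in CD90+ and 74.2 in CD90- cells, 2.97-fold, with the CD90- reading just above the floor. Its second probe set read 124 against 27.2, at least 1.73-fold. The third chain gene of the type, COL5A3, read 70.1 against 20.4 on its brighter probe set and so lay just under the floor. The 50 measured genes nearest to COL5A1 had a median log2 ratio of 0.12 and those nearest to COL5A2 a median of -0.24.

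The 250 bases before the first of the 2 annotated starts of COL5A1, which lie 2 bases apart, are shown because that gene differed most among those with both readings above the floor, and were searched on both strands for the CCAAT box (CCAAT), the GC box (GGGCGG) and the TATA box (TATAAA), none of which overlap in the sequences below. Sequences are those of RefSeq on GRCh38.p14, 5′ to 3′ on the strand of the gene, with matches in capitals. The COL5A1 window lies at chr9:134641553-134641802 on the plus strand and holds 2 GC boxes. A GC box occurs in 42.6%, a CCAAT box in 32.0% and a TATA box in 10.7% of the 35116 windows of this length before annotated starts.
COL5A1: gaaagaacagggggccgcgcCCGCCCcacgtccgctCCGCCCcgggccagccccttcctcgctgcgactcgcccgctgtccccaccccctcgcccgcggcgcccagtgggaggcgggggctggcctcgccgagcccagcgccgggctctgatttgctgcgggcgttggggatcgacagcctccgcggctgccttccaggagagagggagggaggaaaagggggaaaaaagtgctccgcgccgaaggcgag

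The major fibrillar collagens were mostly out of range. Collagen I, the main protein of tendon, bone and scar, joins chains of COL1A1 and COL1A2. COL1A1 read 2125 in CD90+ and 1240 in CD90- cells on its brightest probe set, 1.71-fold. Its other probe sets read 209 against 104, 172 against 106, 66.7 against 34.9 and 42.7 against 38.7. All 5 were higher in CD90+ cells in raw signal, and 3 of them reached the floor. COL1A2 stayed under the floor in both populations on all 3 of its probe sets, with a highest reading of 47.5 against 20.9. COL3A1, whose collagen accompanies collagen I in pliable tissues, stayed under the floor on all of its 5 probe sets, at most 33.8 against 10.5. COL3A1 and COL5A2 are neighbours on chromosome 2, with 19151 bases and 0 protein-coding genes between them, and of the pair COL5A2 alone was measured. COL27A1, a fibrillar collagen of cartilage, read 1347 against 1289, and its 3 measured probe sets had log2 ratios from 0.06 to 0.26. COL11A2, a chain of the cartilage collagen XI, read 178 against 194, and its second probe set 18.6 against 94.7. COL2A1, COL11A1 and COL24A1 were under the floor throughout. In the fibrillar class 5 of 11 genes were measured, 2 of them at least 2-fold higher (against 2.47% of all measured genes). The class median log2 ratio was 0.78, the value of COL1A1, against 0.01 over all measured genes.

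Fibrillar collagens are products of fibroblasts, so fibroblast markers other than collagens were read beside them. Of 15 markers 5 were measured and 3 were at least 2-fold higher in CD90+ cells (against 2.47% of all measured genes). These were FSTL1, a secreted glycoprotein (845 against 99.7, 8.48-fold), MFAP5, a microfibril protein (637 against 115, 5.54-fold), and PDPN, a mucin-like surface protein also made by squamous tumour cells (2609 against 1278, 2.04-fold). The other 2 were FBLN1, a matrix glycoprotein (823 against 504, 1.63-fold, with all 3 measured probe sets higher), and PDGFRA, a growth factor receptor (107 in each population). The remaining 10, DCN, LUM, PDGFRB, FAP, POSTN, FBN1, ELN, TCF21, SFRP2 and CDH11, stayed under the floor, at 8.50 to 34.8 in CD90+ and 2.48 to 54.2 in CD90- cells. The summed signal of the list was 5208 in CD90+ and 2313 in CD90- cells. Markers of the squamous epithelium matched the label in both populations, with all 8 that had a probe set measured and a summed signal of 88144 in CD90+ and 90709 in CD90- cells. Of pericyte and smooth muscle markers 5 of 7 were measured, of endothelial markers 1 of 7 and of leukocyte markers 1 of 5, and 0 of these 7 were counted beyond 2-fold. For 5 of the 7 that is a bound, among them ACTA2, the smooth muscle actin, at 104 against 29.1 (at least 1.45-fold). The part of these markers in the collagen differences was not tested.

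**Figure D2:**
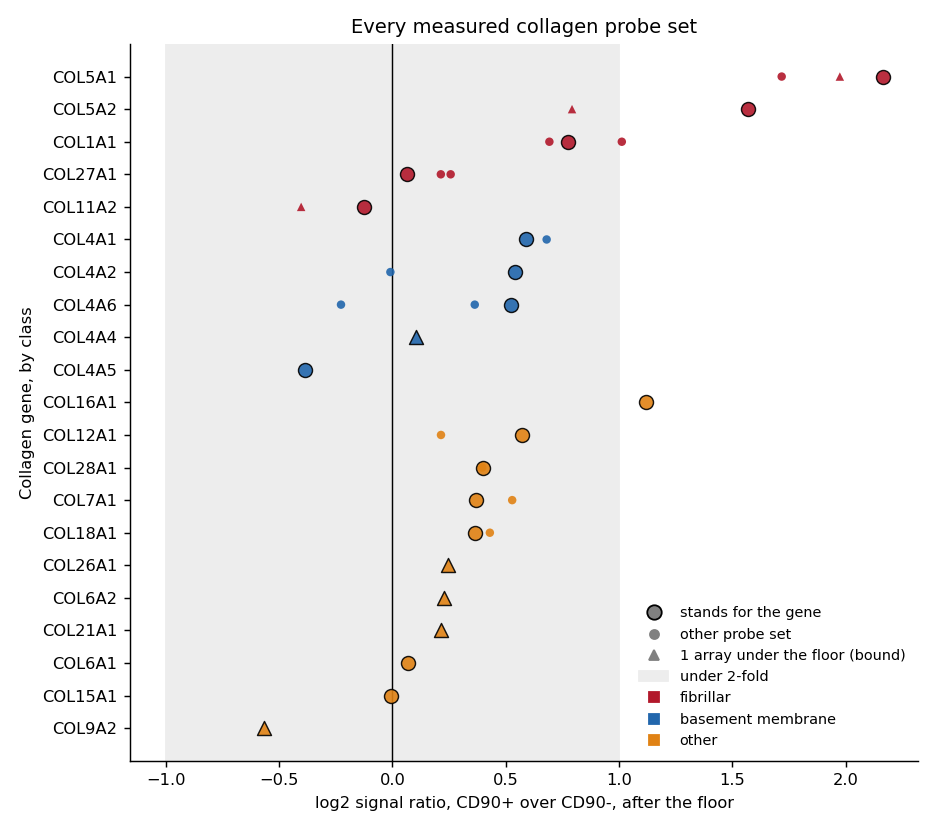
Floored log2 ratio, CD90+ over CD90-, of each of the 37 measured collagen probe sets. Large outlined points stand for the gene, small points are its other probe sets, triangles are bounds with 1 array under the floor, and the grey band marks differences under 2-fold. The 3 probe sets of COL5A1 lie together at 1.72 to 2.16, while those of COL4A2 and COL4A6 spread over both sides of 0 (COL4A2 from -0.01 to 0.54).

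Basement membrane collagen was well measured and differed less. COL4A1 and COL4A2 encode the chains of the collagen IV molecule found in nearly all basement membranes. COL4A1 read 14074 in CD90+ cells and 9362 in CD90- cells, with a log2 ratio of 0.59, and its second probe set 1048 against 654. COL4A2 read 10843 in CD90+ and 7449 in CD90- cells, 1.46-fold, whereas its second probe set read 294 against 296. The brighter probe sets of both genes therefore gave nearly the same log2 ratio, 0.59 and 0.54, while the dimmer one of COL4A2 gave -0.01. The 50 nearest measured genes on chromosome 13 had a median log2 ratio of -0.14.

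The pair lies head to head on chromosome 13 and is transcribed outward from a shared stretch of 126 bases between the starts. This stretch is shown because both genes had like ratios. It lies at chr13:110307158-110307283, is given on the plus strand, the strand of COL4A2, and holds 1 CCAAT box and 1 GC box. In stretches of that length before annotated starts a CCAAT box occurs in 21.1% and a GC box in 34.6%. Its GC content is 80.2%.
COL4A1-COL4A2: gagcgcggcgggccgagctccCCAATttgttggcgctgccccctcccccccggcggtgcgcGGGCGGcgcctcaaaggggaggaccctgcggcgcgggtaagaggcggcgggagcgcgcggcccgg

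The X-linked pair COL4A5 and COL4A6 is also head to head, with 379 bases between the outer starts, but its members read in opposite directions. Both chains join in the collagen IV of some epithelial basement membranes, including those of skin and esophagus. COL4A5 read 3269 in CD90+ and 4265 in CD90- cells, 1.30-fold lower, with a log2 ratio of -0.38. Its other probe set was under the floor, at 42.8 against 45.6. COL4A6 read 3145 in CD90+ and 2187 in CD90- cells, 1.44-fold higher, with a log2 ratio of 0.52. Its other probe sets disagreed with each other, at 99.6 against 77.4 and 142 against 166. Neither gene reached 2-fold, and the medians of their neighbours were 0.04 and 0.03. The windows before both starts overlap and are shown to set this pair against the pair above.
COL4A5: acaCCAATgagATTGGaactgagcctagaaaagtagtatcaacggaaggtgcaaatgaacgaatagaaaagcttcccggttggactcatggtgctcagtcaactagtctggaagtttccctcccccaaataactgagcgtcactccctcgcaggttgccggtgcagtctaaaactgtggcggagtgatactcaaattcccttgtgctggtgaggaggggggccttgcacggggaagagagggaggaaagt
COL4A6: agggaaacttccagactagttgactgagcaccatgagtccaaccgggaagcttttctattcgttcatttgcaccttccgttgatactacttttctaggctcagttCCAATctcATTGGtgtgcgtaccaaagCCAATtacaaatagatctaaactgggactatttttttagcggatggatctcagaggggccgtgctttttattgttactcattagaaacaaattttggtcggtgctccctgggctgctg
The COL4A5 window lies at chrX:108439588-108439837 on the plus strand and that of COL4A6 at chrX:108439459-108439708 on the minus strand. They hold 2 and 3 CCAAT boxes, of which a pair is common to both, and 0 GC boxes. Their GC contents are 51.2% and 44.0%. COL4A6 has 2 annotated starts and the outer one is shown. The window before its inner start holds 0 CCAAT boxes and 1 GC box and has a GC content of 48.8%.

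The third pair, COL4A3 and COL4A4, encodes chains of the kidney and lung form of collagen IV. COL4A3 stayed under the floor on all of its 7 probe sets. COL4A4 reached it on 1 of 3 probe sets and in CD90+ cells alone, at 76.9 against 8.14, which gives a bound of at least 1.07-fold. With the lower floor of 17.2 its log2 ratio was 2.16. The other 4 measured genes of the class had both readings above the floor and lay under 2-fold, 3 of them with ratios above 0 (against 51.0% of all such genes).

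Among transmembrane collagens, which span the cell membrane and shed their outer parts, none of the 3 with a probe set was measured. COL13A1, a collagen of cell adhesion sites, read at most 59.4 in CD90+ and 24.5 in CD90- cells over its 3 probe sets, each of which was higher in CD90+ cells. COL23A1 read 5.66 against 5.81, and COL25A1 at most 21.3 against 14.7. With these signals no difference could be measured for the class.

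The fibril-associated collagens with interrupted helices, which decorate the surface of fibrils, held the third gene beyond 2-fold. COL16A1 on chromosome 1 read 494 in CD90+ and 227 in CD90- cells, 2.18-fold, with a log2 ratio of 1.12 on its 1 probe set. With a floor of 397, above the CD90- reading, the gene has only a bound, a log2 ratio of at least 0.32. Its 50 nearest measured genes had a median of -0.04. COL12A1 read 309 in CD90+ and 208 in CD90- cells, 1.49-fold, and 152 against 131 on a second probe set, while its other 3 probe sets were under the floor. COL21A1 read 83.1 against 45.4, at least 1.16-fold higher, and COL9A2, a cartilage chain, 68.0 against 106, at least 1.48-fold lower, the lowest ratio of any measured collagen gene. The other 6 genes of the group stayed under the floor, among them COL14A1 and both further chains of collagen IX. The 250 bases before the start of COL16A1, at chr1:31704018-31704267 on the minus strand, are shown as those of the second gene beyond 2-fold with an annotated window. They hold 2 GC boxes, as do the windows of COL5A1 and, among others, of COL27A1 and COL4A3, which were not beyond 2-fold or not measured.
COL16A1: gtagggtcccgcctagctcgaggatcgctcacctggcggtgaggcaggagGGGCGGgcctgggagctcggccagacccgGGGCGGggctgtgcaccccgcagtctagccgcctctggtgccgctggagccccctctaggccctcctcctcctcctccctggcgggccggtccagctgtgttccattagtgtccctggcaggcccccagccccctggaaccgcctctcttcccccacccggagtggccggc

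The anchoring and basement membrane zone collagens were present in both populations with small differences. COL7A1 encodes the collagen of the anchoring fibrils that hold squamous epithelium to its stroma. It read 2868 in CD90+ and 2223 in CD90- cells, 1.29-fold, and 1272 against 881 on its second probe set, so both probe sets were higher in CD90+ cells. COL18A1, the precursor of the angiogenesis inhibitor endostatin, read 720 against 559 (1.29-fold) and 576 against 427. COL15A1, its relative at basement membranes, read 3513 against 3530, a log2 ratio of -0.01.

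Collagen VI, which forms beaded filaments next to basement membranes, was near the floor. COL6A1 reached the floor on 1 of 8 probe sets, at 177 against 169, and COL6A2 on 1 of 2, at 83.9 against 47.7. The COL6A1 probe sets under the floor differed in raw direction, among them 70.2 against 11.6 and 40.3 against 50.7. COL6A3, COL6A5 and COL6A6 stayed under it. COL28A1, a relative of collagen VI, read 113 against 85.3 and 95.1 against 72.2, 1.32-fold on the brighter probe set. COL26A1 read 84.9 against 62.2, at least 1.18-fold. The network collagens COL8A1, COL8A2 and COL10A1, found in vessel walls, the cornea and growth plate cartilage, were not measured.

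**Figure D3:**
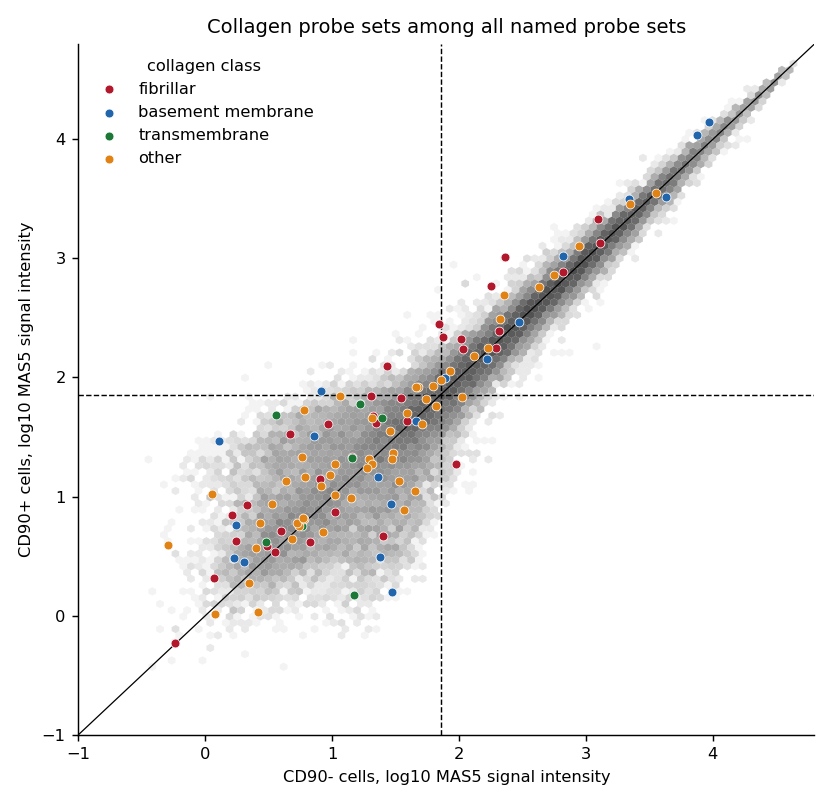
Signal in CD90+ cells (vertical, log10 intensity) against CD90- cells (horizontal, log10 intensity) for all 112 collagen probe sets, coloured by class, over all named probe sets in grey. Dashed lines mark the floor and the solid line equal signal. Most collagen points, 75 of 112, lie in the lower left where both arrays are under the floor, and the points that leave the diagonal above the floor are mainly fibrillar.

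Of the 75 collagen probe sets under the floor on both arrays 48 (64.0%) had the higher raw signal in CD90+ cells, against 53.7% of all named probe sets there. Ratios of such dim readings are noisy in MAS5 and were not counted. Of the 12 collagen genes with more than 1 measured probe set 10 had them all on one side of 0, the exceptions being COL4A2 and COL4A6. The like share over all genes was not counted, so 10 of 12 is not read as a result about collagens.

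Promoter composition was described for the 31 collagen genes with a probe set and an entry in the RefSeq table, 1 start each, the first by coordinate. The GC content of the 250 bases before the start had a median of 68.2% over 18 measured genes and of 65.6% over 13 genes under the floor, with 58.0% over all genes in the table. The values of measured genes ran from 36.0% to 88.4%, and a GC box stood in 12 of the 18 windows (66.7%), against 7 of 13 for genes under the floor (53.8%) and 11552 of all 27305 genes (42.3%). For COL4A6 the window counted here is the one before its inner start. Windows of measured and unmeasured collagens overlapped across nearly the whole range. COL5A2 and COL1A1 are among those named without a window.

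**Figure D4:**
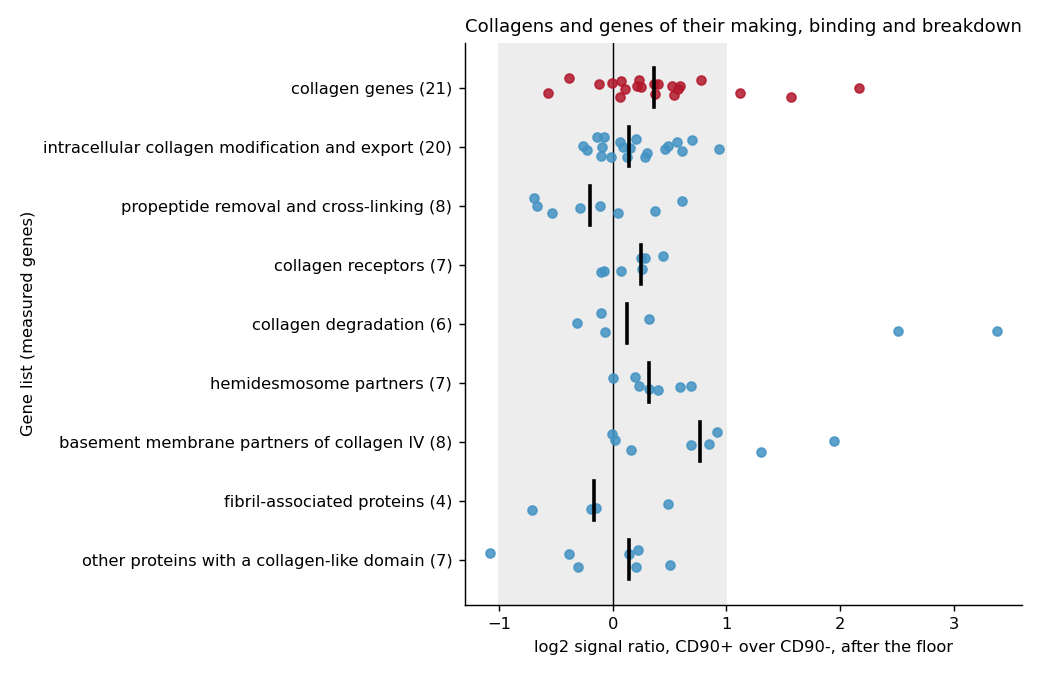
Floored log2 ratio, CD90+ over CD90-, of the measured members of each gene list, 1 point per gene, with the number of genes in brackets and the median as a black bar. The grey band marks differences under 2-fold. The points furthest right are MMP1 and MMP2 in the degradation list, at 3.38 (a bound) and 2.51, and the basement membrane partners have the highest list median, 0.77.

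Genes that modify, fold and export collagen chains in the secretory pathway were well measured and none reached 2-fold in either direction. Of 23 with a probe set 20 were measured, 13 had ratios above 0 (against 51.0% of all genes above the floor on both arrays), and the median log2 ratio was 0.14, against 0.01 over all measured genes. The highest ratio was that of SERPINH1, the collagen chaperone HSP47, at 3690 in CD90+ and 1926 in CD90- cells (1.92-fold). The lowest was that of SEC23A, a coat protein of transport vesicles, at 5523 in CD90+ and 6607 in CD90- cells (1.20-fold lower), although its second probe set read 250 against 215. These genes, the ends of the list, were chosen after their values were seen. The brightest members were PPIB, a prolyl isomerase (18901 against 16415), and P4HB, the partner of the hydroxylase subunits (10122 against 9265).

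Of 15 genes that trim propeptides and cross-link fibrils outside the cell 8 were measured, with 0 beyond 2-fold and a median log2 ratio of -0.20. ADAMTS3 (73.8 against 35.4) and LOXL2 (92.9 against 60.4) reached the floor in CD90+ cells alone, so for them 0 beyond 2-fold is a bound. Of the 6 with both readings above the floor 1 had a ratio above 0 (against 51.0% of all such genes). Among the others BMP1 and LOX each had 2 measured probe sets, 1 higher and 1 lower in CD90+ cells. The brightest were PCOLCE2, an enhancer of propeptide cleavage (1691 against 1112), and LOXL3, a lysyl oxidase relative (372 against 599). ADAMTS2, the main amino-propeptide protease, and LOXL4 stayed under the floor.

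Among proteins that share the basement membrane with collagen IV, 8 of 11 were measured, 7 of them with ratios above 0 (against 51.0% of all genes above the floor on both arrays), and 2 were at least 2-fold higher in CD90+ cells (against 2.47%). The median log2 ratio was 0.77. LAMB1, the beta chain common to several laminins, read 1982 in CD90+ and 516 in CD90- cells, 3.84-fold, with both of its probe sets higher. LAMA2, an alpha chain of muscle and nerve laminins, read 215 against 87.3, 2.46-fold, but had a log2 ratio of only 0.69 on its least changed probe set. LAMC1, the brightest, read 3461 against 3417. Of the hemidesmosome partners of COL17A1 and COL7A1 all 7 with a probe set were measured, with 0 beyond 2-fold and a median of 0.32. All 7 ratios were above 0 (against 51.0% of genes), but the readings of ITGB4 were equal at 1892, and of the 7 measured probe sets of DST 5 were lower in CD90+ cells. The brightest were LAMB3 (7308 against 6400) and ITGA6 (8656 against 6588).

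Receptors for collagen differed little. DDR1 had 0 probe sets with a single symbol and was not analysed here. Of the other 9 receptors 7 were measured, with 0 beyond 2-fold and a median of 0.25. The integrin subunits ITGB1 (18735 against 15445) and ITGA2 (10477 against 8763), which pair into the main collagen receptor of epithelial cells, were the brightest. In the degradation list 2 of 6 measured genes were at least 2-fold higher (against 2.47% of all measured genes), the interstitial collagenase MMP1 (746 against 38.8, at least 10.4-fold) and the gelatinase MMP2 (618 against 108, 5.70-fold). MMP1 reached the floor in CD90+ cells alone, so the filter fixed its side. Of the 5 genes of the list with both readings above the floor 1, MMP2, was at least 2-fold higher (against 240 of all 11373 such genes). With a floor of 397 the CD90+ reading of neither MMP1 nor MMP2 was 2 times the floor. Neither gene could then reach 2-fold, whatever its CD90- reading, and the ratios there are bounds. MMP9, MMP14, MMP16 and CTSK lay under 1.5-fold, and MMP8, MMP13 and FAP under the floor.

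Of 14 genes for proteins that bind fibrils 4 were measured, with 0 beyond 2-fold and a median of -0.17. FMOD (65.6 against 117) and TNXB (37.7 against 81.7) reached the floor in CD90- cells alone. The filter fixed the side of both, so for them 0 beyond 2-fold is a bound and the median is not read as a direction. Of the 2 with both readings above the floor 1 had a ratio above 0 (against 51.0% of all such genes). FN1, the fibronectin gene, was not among the 4 by its standing probe set (67.0 against 31.0), but 3 others that may share sequence with other genes reached the floor, at 151 against 20.9, 81.1 against 7.53 and 21.6 against 79.2. The brightest were THBS1, a matricellular glycoprotein (8550 against 6112), and PRELP (86.3 against 95.6). Of the 4 measured probe sets of THBS1 3 were higher and 1 lower in CD90+ cells, and the least changed gave a log2 ratio of 0.04. Of 24 other proteins with a collagen-like domain 7 were measured, with a median of 0.14. EMID1 was the 1 gene at least 2-fold lower (against 1.75% of all measured genes), at 82.7 in CD90+ and 175 in CD90- cells (2.11-fold). CTHRC1, a secreted protein of remodelling tissue, read 290 against 252 and COLEC12, a scavenger receptor, 195 against 240.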

How the data were processed

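Signals of 54675 probe sets on 2 arrays, 1 of CD90+ and 1 of CD90- cells, were taken from the deposited value table. These are linear intensities that the authors made with MAS5, per the submitters' processing notes, by combining perfect-match and mismatch probes into 1 signal per probe set. The MAS5 version is not given in the sources used here. Both arrays had a 2 to 98% trimmed mean of 499.9, so the deposited intensities were already scaled alike. Scanner files and detection calls were not analysed here.

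The platform annotation named the probe sets, with 41097 holding 1 symbol and 1801 several (not named); identifiers of 41043 matched the RefSeq table of GRCh38.p14. The 62 control probe sets were left out. The floor of 71.6 was the geometric mean of both array medians. The probe set with the highest mean log2 signal stood for a gene, with the _x_at class used only where there was no other. Log2 ratios of CD90+ over CD90- signals were formed after the floor, and genes were counted at 2-fold with no test. Local medians used the 50 nearest genes that reached the floor in both populations, an addition made after seeing the data. The steps were tested on simulated data with folds planted only in genes whose mean signal was above 4 times the floor. That test did not cover dimmer genes, among them COL5A2 and MMP1.

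The text names each measured collagen gene and, in each pathway list, members beyond 2-fold (at most 6) and the 2 brightest. Marker genes and others were named after their values were seen. The members, lists and tests were chosen with earlier results of these data known. Alternatives were other floors, scalings, probe set rules, a signal filter and a 1.5-fold threshold. Values were made with pandas 2.3.3, statsmodels 0.14.6 and numpy 2.4.6 under Python 3.11.15, and figures with matplotlib 3.10.9.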

Additional observations from a re-analysis of the deposited data

How the results depend on the processing

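The count of collagen genes at least 2-fold higher in CD90+ cells depended on the floor. It was 6 of 35 measured with the floor at the 25th percentile (17.2), where COL1A2, COL5A3 and COL4A4 were added to the 3, and 1 of 11, COL5A1, with it at the 75th percentile (397). It was 5 at a 1.5-fold threshold, and between 2 and 4 under the other alternatives. At least 2-fold lower were 2 genes with the floor at the 25th percentile, COL10A1 and COL6A6, and 0 under the other alternatives. Over all genes 1122 were higher and 835 lower with the lower floor, 89 and 66 with the upper, 541 and 381 with no floor, and 225 and 143 when the least changed probe set stood for a gene. The collagen median log2 ratio stayed between 0.21 and 0.52. Among genes with neither reading under the floor, a restriction chosen after seeing the data, 3 of 16 collagens were at least 2-fold higher (against 2.11% of all such genes). Ratios were above 0 in 21 of 27 such collagens with the lower floor (against 51.24% of all such genes). They were above 0 in 7 of 9 with the upper (against 50.64%) and in 10 of 15 by the least changed probe set (against 50.75%). COL5A1 was beyond 2-fold under all alternatives run, with log2 ratios from 1.37, a bound with the upper floor, to 2.19. COL5A2 had at least 0.79 by its least changed probe set, a bound because the CD90- reading of that probe set was under the floor. COL16A1 had at least 0.32 with the upper floor. With that floor MMP1 had at least 0.91, MMP2 at least 0.64 and MFAP5 at least 0.68. These are bounds from CD90+ readings too low to be called at 2-fold there, as is that of COL16A1. PDPN had 0.53 by its least changed probe set, and SEC23A had 0.22, above 0. LAMA2 was under 2-fold under 3 alternatives, from 0.69. COL4A4 had 2.16 with the lower floor and 3.24 with none, and COL21A1 and COL6A2 had 0.87 and 0.81 in both. By the least changed probe set COL4A2 had -0.01 and COL4A6 -0.23. None of the named collagen, pathway and fibroblast marker genes beyond 2-fold changed sign under the alternatives run. All of these reuse the same 2 arrays, and a change of floor cannot reverse a sign. No paired analysis was possible because each population has 1 array. Signals near the floor limit what can be said of 22 unmeasured collagen genes.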
